A study of Mus musculus with 8 samples.

Results

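The genes described here encode 47 nucleolar ribosome biogenesis factors, proteins that transcribe ribosomal DNA, modify and cut its RNA, and assemble the precursors of both ribosomal subunits. They were listed by name for these roles, and all 47 were among the 19055 gene symbols of the deposited table. Each was read at 10 or more normalized reads in 3 or more of the 8 libraries, so all 47 passed the filter on low values, as did 13704 genes in all. Livers of mice aged 8 to 9 weeks were taken 48 hours after partial hepatectomy, a removal of liver tissue after which the remaining hepatocytes enter the cell cycle. The control group, URI(+/+)Hep, held 3 liver samples of wild-type littermates. The other group, URI(+/D)Hep, held 5 liver samples from mice with a hepatocyte deletion of URI, made with a tamoxifen-inducible Cre recombinase (creERT2) under serum albumin sequences. By its notation, with + for the wild-type and D for the other allele, these mice keep 1 intact copy of URI, and cells that do not express albumin are not expected to carry the deletion. Mice received tamoxifen over 1 week, and surgery was done under Buprex, an analgesic, and isoflurane. The sources used here do not say whether the controls carried the Cre transgene. RNA came from tissue and was read from the 3′ end of each transcript, so a change in a gene can reflect fewer cells of a type or less RNA per cell, which cannot be told apart.

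Ribosome production starts in the nucleolus, where RNA polymerase I copies ribosomal DNA into a long precursor. Small nucleolar ribonucleoproteins (snoRNPs) of the box C/D and box H/ACA kinds guide methylation and pseudouridylation of this precursor. The small subunit processome folds and cuts the part that becomes 18S ribosomal RNA, and a further set of factors assembles the 60S precursor. URI, encoded by Uri1, is a prefoldin-like protein that works with the R2TP chaperone, which takes part in the assembly of snoRNPs. In liver regrowth, ribosome production precedes and accompanies division. The genes were grouped by role into ribosomal DNA transcription and nucleolar scaffold (7 genes), snoRNP core (8), small subunit precursor (17) and large subunit precursor (15).

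Short sequence motifs were counted in the promoters of these genes and in promoters at large. RefSeq windows of 300 bases, 250 before and 50 after the transcript start in build GRCm38.p6, were matched by symbol for 41 of the 47 genes (Npm1, Fbl, Rrp12, Bop1, Rrs1 and Gnl2 had no entry). The E-box CACGTG, the same on both strands and the core bound by MYC family proteins, was present for 10 of the 41 genes (24.4%). It was present for 8.09% of the 27025 genes with a window and for 11.5% of the 10344 of them that were tested. The letters CCGGAAG, the core recognised by ETS family factors, were searched on both strands and were present for 17 of the 41 genes (41.5%), against 9.93% of all genes with a window and 19.1% of those tested. Both motifs were found for 5 genes, Rrn3, Utp4, Utp18, Tsr1 and Nop2. The 6 sequences that follow show the E-box, in capitals, in genes that are named again below. The first 4 genes had lower mean levels in the URI(+/D)Hep livers, Utp18 had the highest log2 ratio of the 10 genes with an E-box, and Mybbp1a had the lowest. The first 5 run 5′ to 3′ on the gene's strand from 150 bases before the start to base 30 of the transcript. They are Pes1 at chr11:3963825-3964004 (+), Tsr1 at chr11:74897930-74898109 (+), Imp4 at chr1:34439679-34439858 (+), Wdr43 at chr17:71616065-71616244 (+) and Utp18 at chr11:93885737-93885916 (-). Mybbp1a is shown from base 21 to base 50 of the transcript, at chr11:72441347-72441376 (+).

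Pes1: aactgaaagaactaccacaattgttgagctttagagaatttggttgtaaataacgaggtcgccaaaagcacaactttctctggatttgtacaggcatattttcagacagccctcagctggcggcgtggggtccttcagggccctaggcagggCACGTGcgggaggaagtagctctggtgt

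Tsr1: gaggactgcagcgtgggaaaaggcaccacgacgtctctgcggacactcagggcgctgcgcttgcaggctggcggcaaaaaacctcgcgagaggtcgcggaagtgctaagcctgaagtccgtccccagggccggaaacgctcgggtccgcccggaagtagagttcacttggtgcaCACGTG

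Imp4: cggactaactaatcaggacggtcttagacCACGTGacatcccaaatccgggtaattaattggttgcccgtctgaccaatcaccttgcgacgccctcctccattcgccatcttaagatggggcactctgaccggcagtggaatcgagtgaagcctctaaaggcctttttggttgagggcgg

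Wdr43: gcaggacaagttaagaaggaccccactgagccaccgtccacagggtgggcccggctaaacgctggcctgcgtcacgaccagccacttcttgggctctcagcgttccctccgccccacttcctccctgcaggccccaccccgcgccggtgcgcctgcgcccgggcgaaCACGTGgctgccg

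Utp18: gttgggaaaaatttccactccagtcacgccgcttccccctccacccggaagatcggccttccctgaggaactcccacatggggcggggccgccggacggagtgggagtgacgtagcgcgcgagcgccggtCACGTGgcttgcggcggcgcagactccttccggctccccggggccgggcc

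Mybbp1a: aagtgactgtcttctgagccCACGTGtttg

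The E-box began at base 3 of the transcript in Pes1, at base 25 in Tsr1, at base 18 in Wdr43 and at base 41 in Mybbp1a. In Imp4 it began 121 bases and in Utp18 20 bases before the start. Of the 10 genes with an E-box, 9 had a negative log2 ratio (median -0.25), as had 24 of the 31 without one (median -0.20). Over the genes tested, the medians were -0.03 with an E-box and 0.00 without. For the ETS-type letters the medians were -0.30 for the 17 genes with them and -0.20 for the 24 without, beside -0.07 and 0.02 over the genes tested. These matches describe letters in a window, and binding was not measured.

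**Figure D1:**
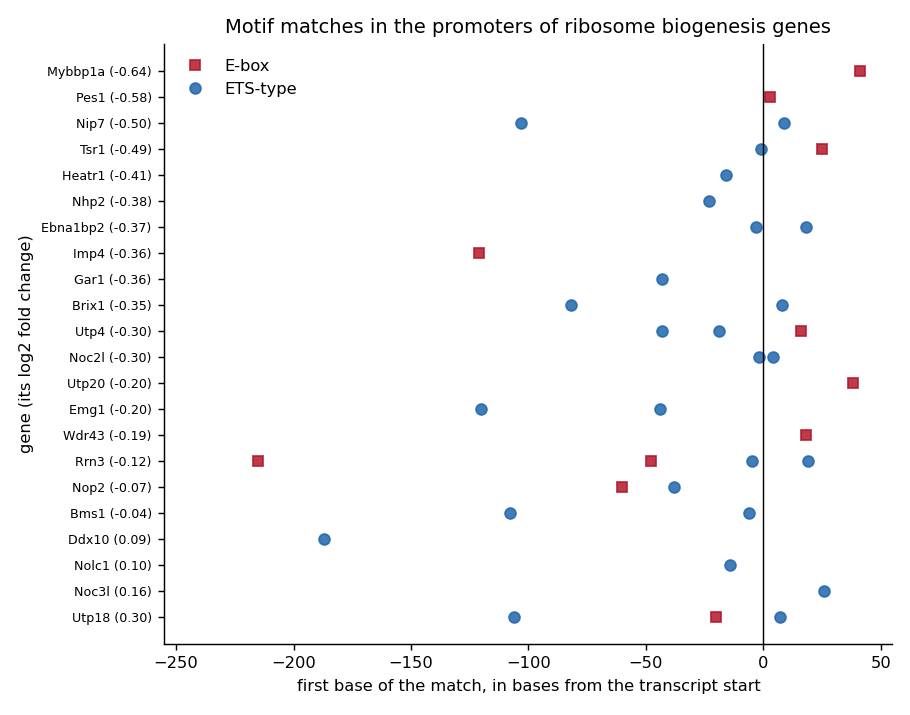
Position of each E-box (squares) and each ETS-type match (circles) in the promoters of the 22 genes that hold one, in bases from the transcript start, with genes ordered from the lowest to the highest log2 ratio. Most matches lie close to the start, and Utp18 (0.30) is the E-box gene at the high end. Noc2l has 2 overlapping windows that show the same site at neighbouring positions.

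Depth was similar in all libraries, from 3838674 to 4800694 recovered reads. Uri1 stood at 468, 374 and 310.05 normalized reads in the controls and at 328, 398, 437, 354 and 401 in URI(+/D)Hep 1 to 5, so the deletion was not visible in its 3′ reads (adjusted p = 0.975 in limma, two-sided exact permutation p = 0.982). The groups are called by their labels for this reason. Of 11 hepatocyte markers measured, such as Alb and Hnf4a, 0 had a library without reads, and markers of endothelial, Kupffer and stellate cells were present too, beside those of the epithelial cells that the labels name. Mki67, a marker of dividing cells, ranged from 23.99 to 468 in controls and from 49.5 to 586 in the other group, lowest in URI(+/+)Hep 1 and URI(+/D)Hep 5. The livers also differed in Y-linked transcripts, at 0.0130 to 0.0338% of reads in controls. The share was 8.33e-05% in URI(+/D)Hep 1 and 0.0188 to 0.0234% in the other livers of that group. Results are therefore also given with these libraries left out or these measures as covariates.

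Most ribosome biogenesis genes had lower mean levels in the URI(+/D)Hep livers, but none passed the limma test. The log2 ratio (the log2 fold change, that is the mean of log2(normalized reads + 1) in URI(+/D)Hep livers less that in URI(+/+)Hep livers) was negative for 38 of 47 genes, with a median of -0.20. Over the 13704 genes tested, 50.2% were negative and the median was 0.00. All 5 URI(+/D)Hep livers lay below all 3 controls for 15 of the 47 genes (31.9%), beside a background of 7.3% of genes tested, and above them for 1 gene, Nop14 (2.13%), beside 6.13%. With limma and Benjamini-Hochberg adjustment over all genes tested, 0 genes of the set passed an adjusted p of 0.05 in either direction, where 0.0146% of genes were called lower and 0.0% higher. The smallest adjusted p was 0.115. At an unadjusted p under 0.05, limma counted 14 lower and 1 higher, that is 29.8% and 2.13%, beside 9.33% and 8.35% of genes tested.

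Count models on the same livers gave 0 or 7 calls. On recovered reads edgeR called 0 of the 47 genes lower, with a background of 0.0219%, and 0 higher, with a background of 0.0%. DESeq2 called 7 of the genes lower, beside 2.74% of genes tested, and 0 higher, beside 1.72%. These 7 were Mybbp1a, Nop58, Nop10, Tsr1, Nop16, Pes1 and Mrto4, and the DESeq2 adjusted p is printed further below for them only. Among genes it did not call, DESeq2 gave an adjusted p of 0.0837 for Brix1, 0.117 for Imp4, 0.122 for Noc4l, 0.158 for Nop14 and 0.261 for Npm1. DESeq2 gave no adjusted p for 6 others or for 4533 of all genes tested. Over the 9171 genes with an adjusted p, it called 4.1% lower and 2.57% higher. Without URI(+/D)Hep 5, whose smallest value above 0 was 0.989, Nop10 and Mrto4 were no longer called. With the mean of 12 cell cycle markers as a covariate, limma called 6 of the genes lower, beside 1.59%, and 0 higher, beside 1.12%. They were the same genes other than Pes1, whose adjusted p was 0.0543. The 95% intervals of all 47 genes lay between -0.99 and 0.82 on the log2 scale, that is, between 0.504-fold and 1.76-fold of the control.

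**Figure D2:**
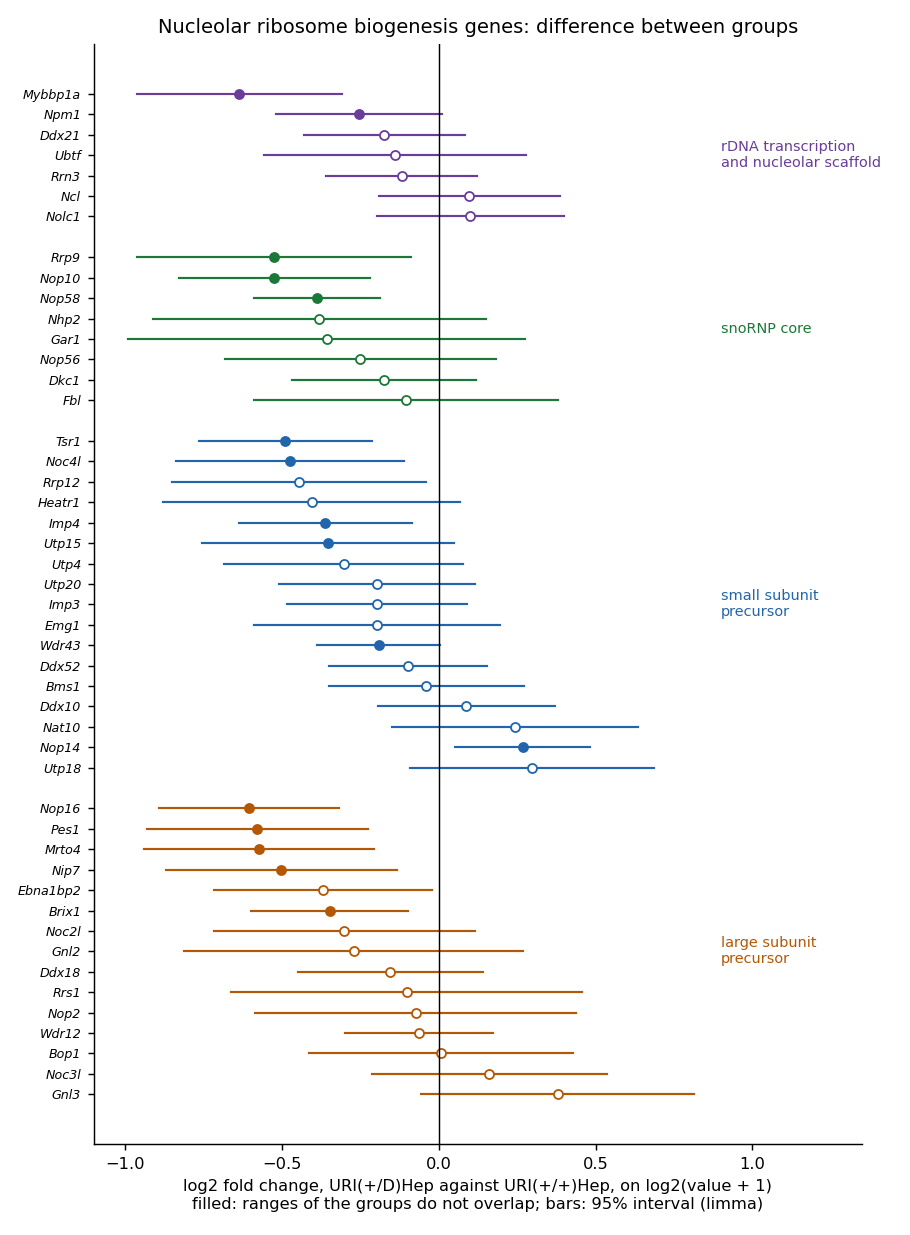
Log2 ratio of each of the 47 genes, URI(+/D)Hep against URI(+/+)Hep on log2(value + 1), with its 95% interval from limma, grouped by role. Filled points mark genes whose groups do not overlap. All 8 snoRNP core genes lie left of 0, and Gnl3 lies farthest right at 0.38.

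Among genes of ribosomal DNA transcription and the nucleolar scaffold, 5 of 7 log2 ratios were below 0 (median -0.14). Mybbp1a, which encodes a MYB-binding nucleolar protein that acts on ribosomal DNA transcription and precursor processing, stood at 380.2, 298 and 274 normalized reads in the controls. In URI(+/D)Hep 1 to 5 it stood at 190.04, 174, 199, 219 and 232. Every URI(+/D)Hep liver lay below every control, and URI(+/+)Hep 1 was the highest. The means were 317 ± 55.8 (SD, n = 3) and 203 ± 23.2 (SD, n = 5), a log2 ratio of -0.64 (SE 0.14, 95% interval -0.96 to -0.31, adjusted p = 0.115 in limma and 0.00932 in DESeq2).

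Npm1 and Ncl, the abundant histone-binding and RNA-binding proteins that shape the nucleolus, did not share a pattern. Npm1 stood at 704, 576 and 559 in the controls and at 541, 506, 439, 533 and 546 in the URI(+/D)Hep livers. The groups did not overlap, yet the gap between control 3 and URI(+/D)Hep 5 was small, and the limma adjusted p was 0.300 (log2 ratio -0.25, SE 0.12). Reads of Npm1 may be shared with its many processed copies in the genome, so its level is uncertain. Ncl, which also hosts snoRNAs in its introns, stood at 1868, 1323 and 1354 against 1535, 1507, 1616, 1627 and 1727. Control 1 held the highest and control 2 the lowest Ncl value of all libraries, and the log2 ratio was 0.10 (SE 0.13, adjusted p = 0.731 in limma).

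The other genes of this role overlapped between the groups. Rrn3, the factor that links RNA polymerase I to its promoter, stood at 285, 349.5 and 344 against 276, 301, 319, 301 and 303 (log2 ratio -0.12, SE 0.11, adjusted p = 0.598 in limma). Ddx21, an RNA helicase of the nucleolus, stood at 772, 668 and 640.5 against 567, 647, 708, 560.2 and 594 (log2 ratio -0.17, SE 0.11, adjusted p = 0.457 in limma). Nolc1, a phosphoprotein that gathers snoRNPs, stood at 264, 232 and 246 against 293, 261, 214, 303 and 262 (log2 ratio 0.10, SE 0.13, adjusted p = 0.732 in limma). Ubtf, the architectural factor of active ribosomal DNA, had a log2 ratio of -0.14 and was highest in control 3, at 424. For Rrn3 and Ubtf, which act on polymerase I directly, the 2 groups overlapped, and Mybbp1a had the largest difference of this role.

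For the snoRNP core, all 8 log2 ratios were below 0 (median -0.37), beside 50.2% of genes tested. For 3 of the 8, all URI(+/D)Hep livers lay below all controls, beside 7.3% of genes tested. Nop58, a scaffold protein of box C/D particles, stood at 884, 987 and 981 in the controls. In the URI(+/D)Hep livers it stood at 709.8, 684, 732, 779 and 721. The ranges did not overlap, at means of 950.3 ± 57.7 (SD, n = 3) and 725 ± 35.02 (SD, n = 5). The log2 ratio was -0.39 (SE 0.09, 95% interval -0.59 to -0.19, adjusted p = 0.115 in limma and 0.00451 in DESeq2), and over 25 alternative settings it stayed between -0.44 and -0.35.

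The partners of Nop58 in the box C/D particle had wider spreads. Nop56, its paralogue, whose log2 ratio was -0.08 without URI(+/+)Hep 3, stood at 83.9, 114 and 141 against 90.2, 93.5, 77.3, 113 and 92.97 (log2 ratio -0.25, SE 0.19, adjusted p = 0.527 in limma). Fbl, the methyltransferase fibrillarin, stood at 70.8, 102 and 121 against 69.8, 83.3, 103, 84.3 and 109.8 (log2 ratio -0.11, SE 0.21, adjusted p = 0.834 in limma). Both were lowest of the controls in URI(+/+)Hep 1 and highest of all libraries in URI(+/+)Hep 3, and the log2 ratio of Fbl was 0.06 without URI(+/+)Hep 3. Rrp9, the protein specific to the U3 particle, stood at 69.6, 56.1 and 46.1 against 45.1, 35.2, 44.5, 35.6 and 35.6. All URI(+/D)Hep livers lay below the controls, by about 1 read for the nearest pair (log2 ratio -0.53, SE 0.19, adjusted p = 0.214 in limma).

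Of the box H/ACA proteins, Nop10 differed most. This smallest subunit of the particle stood at 606, 550.4 and 739 in the controls and at 442, 445, 501, 439 and 363 in URI(+/D)Hep 1 to 5. The groups did not overlap, and the log2 ratio was -0.52 (SE 0.13, 95% interval -0.83 to -0.22, adjusted p = 0.126 in limma and 0.0191 in DESeq2, or 0.0716 in DESeq2 without URI(+/D)Hep 5). Dkc1, the pseudouridine synthase dyskerin, stood at 764, 741 and 919 against 720.4, 756, 787, 750.3 and 574, with URI(+/D)Hep 1 and 5 below all controls and the groups overlapping (log2 ratio -0.17, SE 0.13, adjusted p = 0.516 in limma). Nhp2, a further subunit, stood at 272, 141 and 131 against 139.7, 131, 122, 154 and 114. Control 1 alone stood apart for Nhp2, and its log2 ratio of -0.38 (SE 0.23, adjusted p = 0.427 in limma) became 0.00 when URI(+/+)Hep 1 and URI(+/D)Hep 5 were left out and with URI(+/+)Hep 3 as the 1 control. Gar1, the remaining subunit, singled out after its values were seen, had the same shape, at 279 in control 1 beside 129 and 122 in the other controls and 96.7 to 163 in URI(+/D)Hep livers.

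Of 17 small subunit precursor genes, 13 had log2 ratios below 0 and 4 above (median -0.20). Tsr1, a GTPase-like factor that joins late 40S precursors, stood at 467, 367 and 389 in the controls. In the URI(+/D)Hep livers it stood at 286, 255, 276, 303 and 329. No liver of this group reached the lowest control (log2 ratio -0.49, SE 0.12, 95% interval -0.77 to -0.21, adjusted p = 0.122 in limma and 0.0212 in DESeq2). Noc4l, a nucleolar protein bound to Nop14 in the processome, stood at 152, 100.4 and 105 against 82.2, 90.7, 81.2, 79.6 and 87.03 (log2 ratio -0.47, SE 0.16, adjusted p = 0.188 in limma). Imp4, which helps U3 RNA pair with the precursor, stood at 323, 277 and 245 against 241, 209, 207, 203 and 228 (log2 ratio -0.36, SE 0.12, adjusted p = 0.185 in limma). Noc4l and Imp4 were highest in control 1, and their groups did not overlap.

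Nop14 and Utp18 had the highest log2 ratios of this role. Nop14, the partner of Noc4l, stood at 212, 206 and 198 in the controls and at 237, 259, 247, 261 and 234 in URI(+/D)Hep 1 to 5. It was the 1 gene of the 47 for which every URI(+/D)Hep liver lay above every control (log2 ratio 0.27, SE 0.10, 95% interval 0.05 to 0.48, adjusted p = 0.203 in limma). Utp18, a WD-repeat protein of the processome, stood at 82.7, 101 and 90.1 against 83.1, 109, 119, 126 and 131, with URI(+/D)Hep 1 inside the control range (log2 ratio 0.30, SE 0.17, adjusted p = 0.396 in limma). The partners Nop14 and Noc4l had log2 ratios of opposite sign, and the difference between the 2 genes was not tested. The other 12 genes of this role, Wdr43, Utp4, Utp15, Utp20, Heatr1, Rrp12, Bms1, Nat10, Emg1, Imp3, Ddx10 and Ddx52, had log2 ratios from -0.45 (Rrp12) to 0.24 (Nat10). Of these, Wdr43 and Utp15 had groups that did not overlap, with URI(+/D)Hep lower (log2 ratios -0.19 and -0.35, adjusted p = 0.291 and 0.336 in limma). Over the whole role, 5 of 17 genes lay below all controls, beside 7.3% of genes tested.

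Of 15 large subunit precursor genes, 12 had log2 ratios below 0 (median -0.27). The groups did not overlap for 5, all with URI(+/D)Hep lower, beside 7.3% of genes tested. Nop16, a nucleolar protein of early 60S precursors, stood at 414, 317 and 363 in the controls and at 239, 206, 273, 239.8 and 238 in the URI(+/D)Hep livers. The highest URI(+/D)Hep liver lay below the lowest control, at means of 364 ± 48.4 (SD, n = 3) and 239 ± 23.7 (SD, n = 5). The log2 ratio was -0.60 (SE 0.13, 95% interval -0.89 to -0.32, adjusted p = 0.115 in limma and 0.00477 in DESeq2). Over the 25 alternatives it ranged from -0.70 to -0.51.

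Pes1 and its partners Bop1 and Wdr12 form the PeBoW complex, which is needed to mature the 60S precursor, and only Pes1 had groups that did not overlap. Pes1 stood at 219, 179 and 182 in the controls against 122, 125, 148, 103 and 152 (log2 ratio -0.58, SE 0.16, 95% interval -0.93 to -0.23, adjusted p = 0.134 in limma and 0.0422 in DESeq2). Bop1 and Wdr12, singled out here as its partners after their values were seen, had log2 ratios of 0.01 (95% interval -0.41 to 0.43) and -0.06 (95% interval -0.30 to 0.17). The differences between the 3 genes were not tested.

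Mrto4 and Brix1 were the other named genes of this role with lower levels. Mrto4, which holds the place of the ribosomal stalk protein on 60S precursors, stood at 313, 365 and 512 against 263, 244, 303, 256 and 241. Its controls were spread out, with control 1 near the highest URI(+/D)Hep liver, and the log2 ratio was -0.37 without URI(+/+)Hep 3 (log2 ratio -0.57, SE 0.16, 95% interval -0.94 to -0.21, adjusted p = 0.140 in limma and 0.0329 in DESeq2, or 0.106 in DESeq2 without URI(+/D)Hep 5). Brix1, an early 60S assembly factor, stood at 435, 343 and 338 against 285, 294, 280.3, 287 and 305, a narrow band below all controls (log2 ratio -0.35, SE 0.11, adjusted p = 0.168 in limma).

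Gnl3, the nucleolar GTPase nucleostemin of proliferating cells, had the highest log2 ratio of the set. It stood at 426, 329 and 227 in the controls and at 368, 425, 387, 397 and 498 in URI(+/D)Hep livers. The groups overlapped, with control 1 near the top of the range (log2 ratio 0.38, SE 0.19, adjusted p = 0.340 in limma). Its log2 ratio was 0.14 without URI(+/+)Hep 3 and, without URI(+/+)Hep 1, 0.59. Rrs1, Ddx18, Nop2, Noc2l, Noc3l, Gnl2, Nip7 and Ebna1bp2, the remaining genes of this role, ranged from -0.50 (Nip7) to 0.16 (Noc3l), and of these Nip7 had groups that did not overlap.

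**Figure D3:**
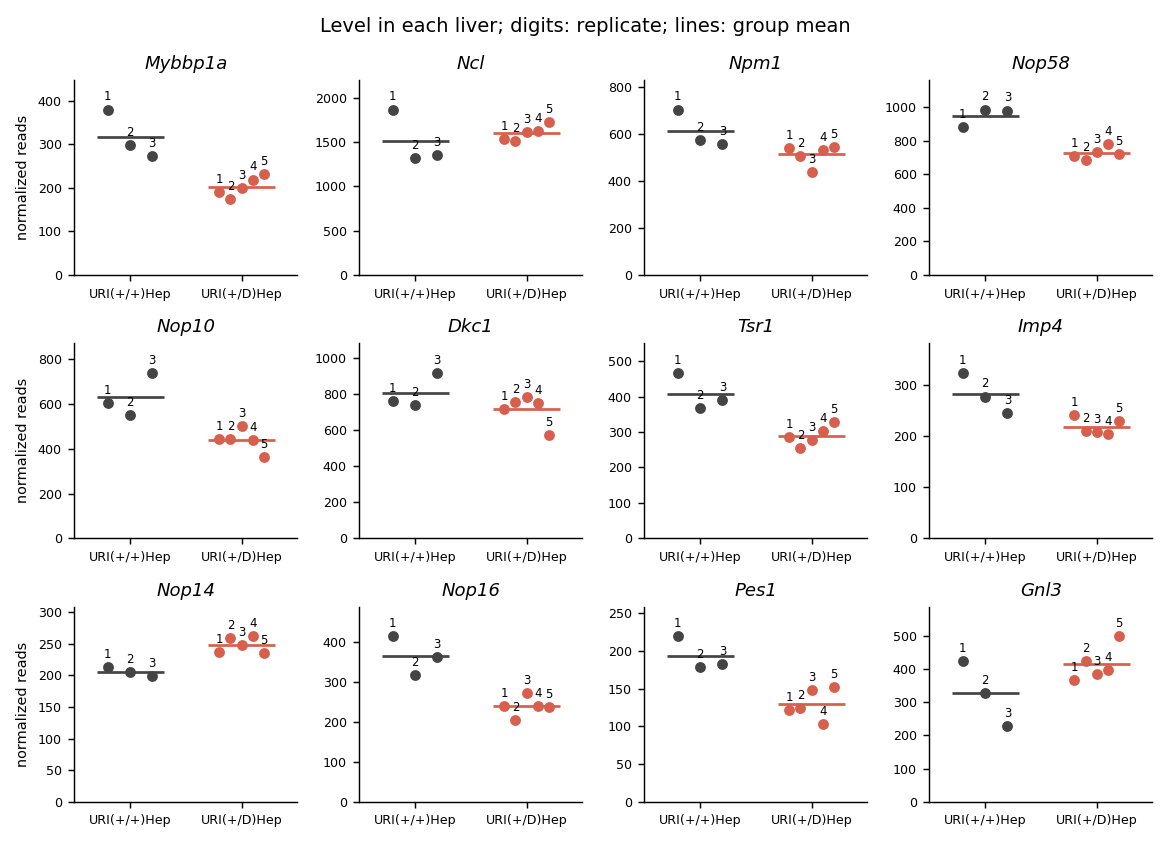
Normalized reads of 12 of the genes in each liver, with digits for the replicate number and lines for the group mean. Nop58 and Nop16 show groups apart, Nop14 lies higher in URI(+/D)Hep livers (234 to 261 against 198 to 212), and Ncl and Gnl3 overlap.

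For most of the genes, as for most genes tested, the controls were more spread out than the URI(+/D)Hep livers. The SD of log2 values was larger in the controls for 33 of the 47 genes (70.2%), beside 62.6% of genes tested. The median SD was 0.20 in controls against 0.16, beside 0.30 against 0.24 over all genes tested, so this spread was not particular to the set. URI(+/+)Hep 1 was the highest of all 8 libraries for 26 of the 47 genes (55.3%), beside 27.1% of genes tested. The median deviation of the 47 genes from their own mean over the libraries was 0.27 for URI(+/+)Hep 1, 0.08 for URI(+/+)Hep 2, 0.06 for URI(+/+)Hep 3 and -0.11 to -0.04 for the URI(+/D)Hep livers. Over all genes tested this deviation stayed between 0.00 and 0.02. Every control median lay above every URI(+/D)Hep median. By role, this separation held for 3 of the 4 roles but not for ribosomal DNA transcription genes, where URI(+/D)Hep 3 (0.05) lay above URI(+/+)Hep 3 (0.03). Among the controls, the snoRNP core had its highest median in URI(+/+)Hep 3 and not in URI(+/+)Hep 1, with 0.30 for URI(+/+)Hep 3, 0.21 for URI(+/+)Hep 1 and 0.15 for URI(+/+)Hep 2, and 4 of its 8 genes were highest in control 3.

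**Figure D4:**
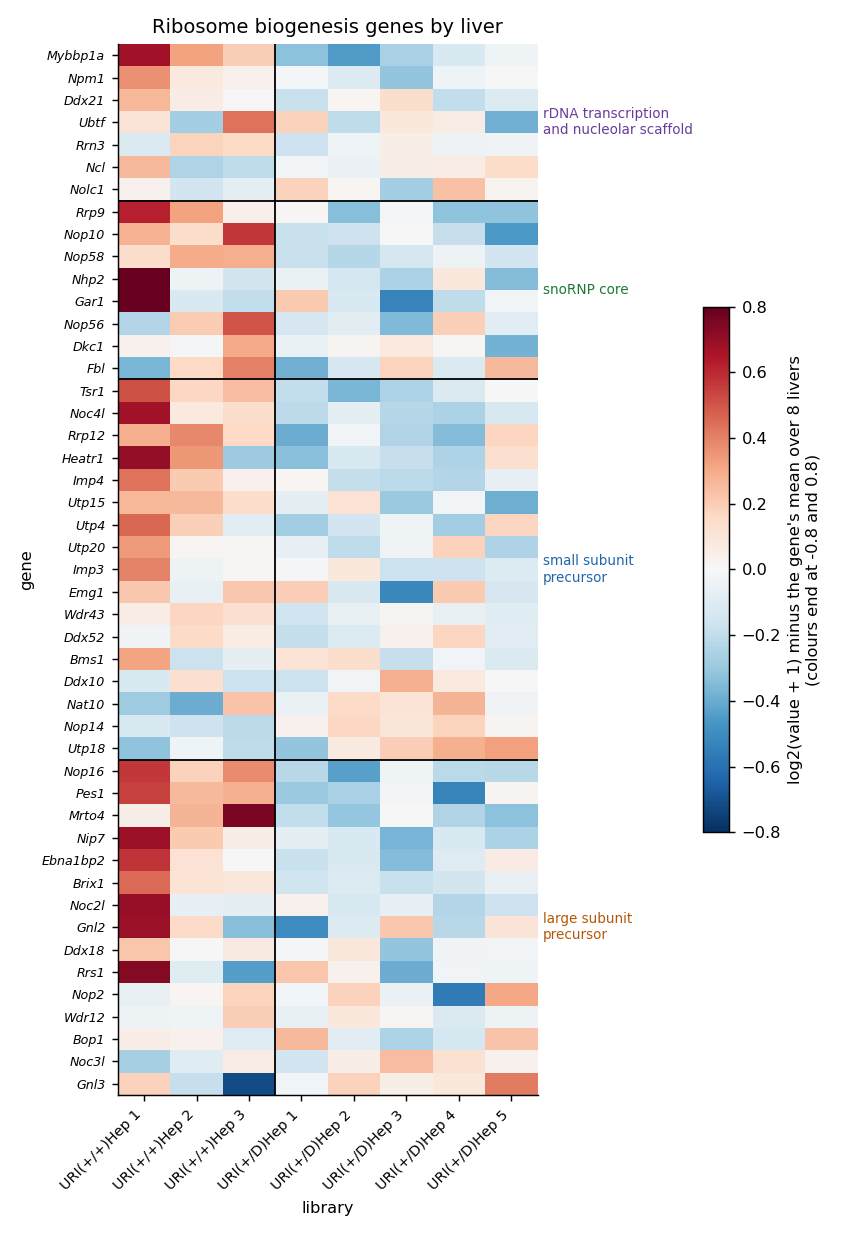
Deviation of log2(value + 1) from each gene's mean over the 8 libraries, with genes in rows by role and livers in columns. Control 1 is the darkest red column, for example for Nhp2 and Gar1, while Nop10, Nop56, Fbl and Mrto4 peak in control 3.

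Left-out livers moved the size of the difference more than its sign. Without URI(+/+)Hep 1 the median over the 47 genes was -0.15 and without URI(+/+)Hep 2 it was -0.28. For large subunit precursor genes the median was -0.10 without URI(+/+)Hep 1, against -0.27 with it, and it was -0.17 without URI(+/D)Hep 1. The median of ribosomal DNA transcription genes was -0.08 without URI(+/+)Hep 3. That of snoRNP core genes stayed between -0.44 and -0.28 under every alternative run.

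Division markers, Y-linked reads and markers of other cell types also varied between livers. Of 12 cell cycle markers, 1 was negative, with a median log2 ratio of 0.44. In limma 0 of them were called, and 0 lay below and 0 above all controls. Mki67 was 23.99 in control 1, where most of the genes were highest, and 49.5 in URI(+/D)Hep 5, where their median deviation was -0.04. When both livers were left out the median log2 ratio was -0.14, and with the cycle markers as a covariate it was -0.21. Using the Y-linked share as a covariate gave -0.18, and with URI(+/+)Hep 3 as the 1 control, a setting chosen after the data were seen, it was -0.13. Myc, which drives ribosome biogenesis genes and did not pass the filter, stood at 22.8, 6.89 and 6.44 in the controls and at 4.68 to 8.84 in URI(+/D)Hep livers, where 3 reads correspond to 2.65 to 3.60. Of the other 11 tested members of the MYC network, 0 were called, 6 were negative, and the median was 0.00.

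Markers of other cell types were tallied in the same way. The 6 bile duct markers summed to 254 to 1659 normalized reads in controls and 233 to 1169 in URI(+/D)Hep livers, with Krt19 at 0 in some libraries, and of the 4 markers tested 2 had negative log2 ratios, 2 had positive ones and limma called 0. The negative ones were Sox9 and Spp1, named after their values were seen and both highest in URI(+/+)Hep 1 and 2. Sox9 stood at 1141, 631 and 121 in the controls and at 108 to 175 in the other group, and Spp1 at 458, 377 and 97.6 against 90.9 to 144. Endothelial markers summed to 1817 to 2291 in controls and to 2474.5 to 2897.5 in URI(+/D)Hep livers, with 8 of 8 log2 ratios positive and 0 called in limma. For 3 of these 8 every URI(+/D)Hep liver lay above all controls, beside 6.13% of genes tested, and for 0 below. Neutrophil markers summed to 528 to 1077 and 294 to 860.2, with 6 of 6 tested negative, 0 called and Ly6g at 0 in some libraries. Erythroid markers summed to 2452 to 3548 and 1603 to 2928, with 5 of 5 tested negative, and Kupffer cell markers to 4459 to 5977 and 4839 to 6085, with 5 of 6 positive, and limma called 0 of either. Hepatocyte markers summed to 52938 to 82058 in controls and to 51360 to 61566 in URI(+/D)Hep livers. Of 11 such markers 7 were negative (median -0.05) and limma called 0. For 1 marker every URI(+/D)Hep liver lay below all controls, beside 7.3% of genes tested, and for 2 above, beside 6.13%. The 2 were Cps1, a urea cycle enzyme, and Apob, both named after their values were seen. Cps1 stood at 1077, 1802 and 1879.6 in the controls and at 2709 to 3682 in URI(+/D)Hep livers (log2 ratio 1.03, adjusted p = 0.108 in limma). Apob stood at 2071, 2570 and 2390 against 2942 to 4756 (log2 ratio 0.62, adjusted p = 0.122 in limma). DESeq2 called 2 bile duct, 1 neutrophil and 1 hepatocyte marker lower, beside 2.74% of genes tested. It called 2 endothelial and 2 hepatocyte markers higher, beside 1.72%, and 0 Kupffer or erythroid markers in either direction. The part of these cells in the ribosome biogenesis result was not tested.

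**Figure D5:**
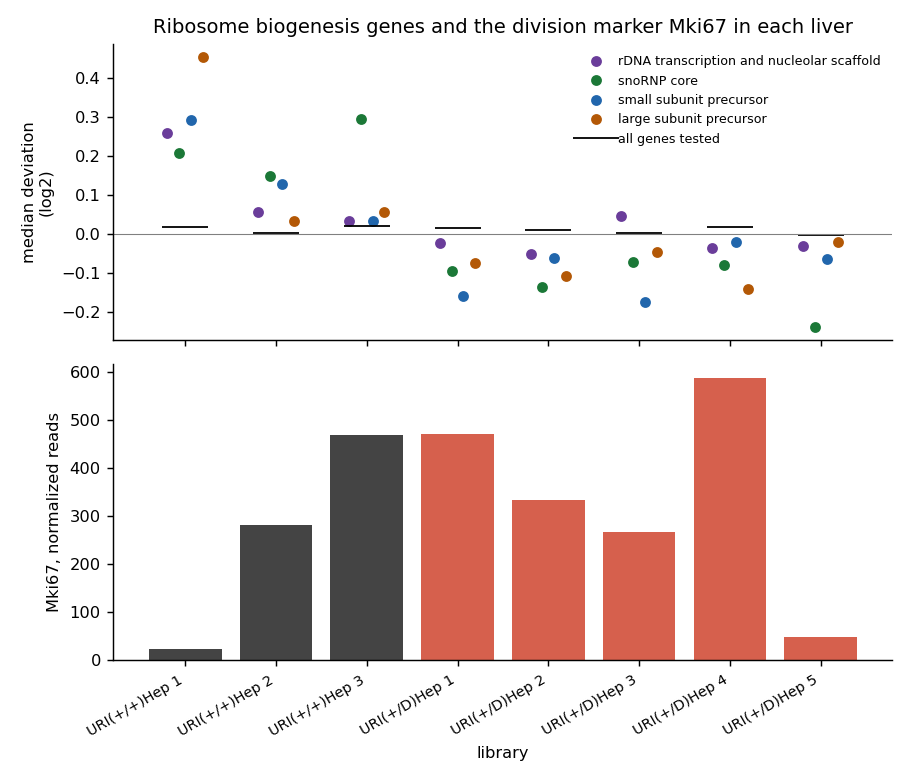
Top, median deviation (log2) of the genes of each role from their mean over the 8 libraries, with all genes tested as black bars; bottom, normalized reads of Mki67 in the same livers. Control 1 has the highest medians for 3 of the 4 roles and the lowest Mki67 (23.99), while URI(+/D)Hep 5, with Mki67 at 49.5, lies below 0 in all 4.

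Further genes of the pathway, outside the 47, had list medians from -0.25 to -0.06. The genes named from each list, here and in the next paragraph, are the 2 with its smallest limma p. They are therefore not typical of their lists. Of 41 other small subunit factors, 28 were negative, the median was -0.18, 6 (beside 7.3% of genes tested) lay below and 1 (beside 6.13%) above all controls in every URI(+/D)Hep liver, and limma called 0 in either direction. Tsr3, an enzyme that modifies 18S RNA, stood at 333, 380.1 and 360.5 in the controls and at 199 to 292 in the URI(+/D)Hep livers (log2 ratio -0.65, SE 0.15, adjusted p = 0.115 in limma). Rcl1, a processome factor, stood at 3914, 2529 and 2643 against 1655, 1579, 2209, 1753 and 1606 (log2 ratio -0.77, SE 0.17, adjusted p = 0.115 in limma). Of 39 other large subunit factors, 24 were negative with a median of -0.06, 6 lay below and 2 above all controls, against the same background shares of 7.3% and 6.13%, and 0 were called. Among these, Rsl1d1 and Ppan had log2 ratios of -0.43 and -0.63.

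SnoRNP assembly factors and processing nucleases were also not called in limma. Of 9 assembly factors, 7 were negative, with a median of -0.25 and 1 below all controls, beside 7.3% of genes tested. Snu13, the box C/D protein that binds the snoRNA first, stood at 57.6, 57.1 and 52.6 against 45.96, 48.1, 26.1, 39.3 and 22.7 (log2 ratio -0.66, SE 0.27, adjusted p = 0.255 in limma), without overlap. Nufip1, which helps to build box C/D particles with the R2TP chaperone, had a log2 ratio of 0.39 (SE 0.19, adjusted p = 0.320 in limma). Of 22 exosome and RNase MRP genes, 17 were negative, with a median of -0.12 and 3 below all controls, beside 7.3% of genes tested. Mphosph6, an exosome cofactor in ribosomal RNA maturation, stood at 229, 256 and 240.3 against 121, 116, 156, 171 and 172 (log2 ratio -0.73, SE 0.16, adjusted p = 0.115 in limma). Rpp14, of RNase P and MRP, had a log2 ratio of -0.53 (SE 0.10, adjusted p = 0.108 in limma). On recovered reads DESeq2 called 3 of the other small subunit, 4 of the other large subunit, 0 of the assembly and 2 of the nuclease genes lower, beside 2.74% of genes tested, and 0 of any of these lists higher, beside 1.72%.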

How the data were processed

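Oligo-dT primed 3′ libraries (QuantSeq, sense strand, with a molecular identifier of 6 nt) were made from 3 URI(+/+)Hep and 5 URI(+/D)Hep livers, per the labels' protocols. The deposited signal values are gene read counts that the authors divided by 1 size factor per library, as read from the values: each is a whole multiple of its library's smallest value above 0 in 100% of cases (tolerance 1e-06). Build GRCm39 and the tools featureCounts, DESeq2 and bcl2fastq are listed in the submitters' processing notes, and no source used here gives the aligner, the annotation or the treatment of identifiers. The size factors put libraries on 1 scale, so a change shared by most genes would not be seen. In URI(+/D)Hep 5 the smallest value is 0.989, near 1, so count models were also run without it. In URI(+/+)Hep 2 it is 0.985, and count models without that library were not run.

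Values were tested as log2(value + 1) for genes with at least 10 in at least 3 libraries, using limma 3.58.1 (R 4.3.3) with its trend and Benjamini-Hochberg adjustment over all 13704 genes, and a gene is called at an adjusted p under 0.05. A fold change on this scale is understated for low genes. Alternatives used edgeR 4.0.16 and DESeq2 1.42.0 on recovered reads, other filters, scalings and covariates, and left-out libraries. The limma script was tested on simulated data. At these depths 3 reads equal 2.65 to 3.60 normalized reads. The labels number the liver samples of a group, each called a liver here, without stating that each came from its own mouse, so p-values measure the spread between these samples, which may be technical. Genes given in full are, per role, the 4 with the smallest p, the most positive, and 8 fixed by name, 23 in all. The genes and lists were chosen with earlier results of these data known.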

Additional observations from a re-analysis of the deposited data

Results flagged for a closer look

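Among the 24 items examined for a sample far from the rest of its group, in the 5 URI(+/D)Hep livers, 1 stood out. Of these items, 23 were the levels of the genes given in full. Dkc1, the pseudouridine synthase of box H/ACA particles, was at 574 normalized reads in URI(+/D)Hep 5 and at 720.4 to 787 in the other livers of the group. The gap to its nearest neighbour was 0.721 of the group's range, above Dixon's critical value of 0.710. Chance alone gives such a flag in about 5% of groups. Mki67 was also lowest of the group in this liver, at 49.5, and its part in the Dkc1 level was not tested.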

How the results depend on the processing

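The median log2 ratio of the 47 genes kept its sign under all 25 alternatives, between -0.28 and -0.13, and 33 to 39 of the genes were negative. Leaving out single livers gave medians from -0.28 to -0.15, 15 to 19 of the genes with URI(+/D)Hep below all controls (7.68 to 13.2% of all genes tested), 1 to 3 above (6.82 to 11.8%), and, over all genes tested, 0 to 23 called lower and 0 to 11 higher, both highest without URI(+/+)Hep 3. Of the 47 genes, 0 were called in any of these fits. DESeq2 called 7 of the 47 lower, with 376 genes lower and 236 higher in all, and 5, 255 and 123 without URI(+/D)Hep 5. With the cycle covariate these counts were 6, 218 and 154. The count of all genes called lower was 0 with quantile normalization, without the trend, with the Y-linked covariate, with URI(+/+)Hep 1 and URI(+/D)Hep 5 left out, with URI(+/+)Hep 3 as the 1 control, and in edgeR without URI(+/D)Hep 5. Genes called higher numbered 1 with a mean of at least 50, with array weights, and with both livers left out. With both livers left out, 19 of the 47 lay below all controls (13.6% of all genes tested) and 3 above (12.9%), and with URI(+/+)Hep 3 as the 1 control 22 lay below (24.7%) and 4 above (22.6%). Of 23 genes given in full, 21 never changed sign. Fbl ranged from -0.32 to 0.0627 over single left-out livers, and Nhp2 became 0.00 (0.00413 with both livers left out, 0.00496 with URI(+/+)Hep 3 as the 1 control). The cause of these shifts was not tested. The replicate numbers do not pair the livers (correlations of deviations -0.404, -0.0429 and -0.266). With them as a replicate block, limma called 0 genes lower and 0 higher, and the median of the 47 was -0.24 with 39 negative. Settings added after seeing the data were URI(+/+)Hep 3 as the 1 control and both count models without URI(+/D)Hep 5. For the lowest genes of the set, such as Nop2 at 23.4 to 43.5 normalized reads, counting error limits what could be detected.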
